A study of Enallax costatus with 10 samples.

Results

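In the green alga Enallax costatus, 139 of 32478 assembled transcripts had their highest level in fully dried cells and a level at least 5-fold lower in every library of the other stages. The members were chosen by the deposited length-normalised expression values, called scores here. The lower of the 2 Dry scores had to be at least 5 times the highest of the 8 scores from the other stages, and both Dry libraries had to hold at least 30 counts. These Dry-peaking genes were 3.16% of the 4400 genes that met the count minimum. All values of the 10 libraries were used to choose them, so every difference between Dry and another stage is given as a description, without a test.

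Enallax costatus (strain CCAP 276-31) is a green alga, and all 5 stages came from this strain, grown for 6 weeks in flasks. Drops of 40 µL were dried on cover glasses. The 5 stages were Hydrated (0 h), Early desiccation (2.5 h, 25% of the volume gone), Late desiccation (7.5 h, 60% gone), Dry (about 24 h, of which 11 h were spent fully flat) and Rehydrated (1 h after water was returned), each with 2 RNA-seq libraries. The labels name no separate cultures, so the spread between the libraries of a stage may be technical. Libraries held between 1974807 and 3867190 expected counts, with the fewest in Rehydrated. The 2 Rehydrated libraries stood apart from each other for these genes, so results on that stage are given per library, and with and without each of them.

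Algae that survive drying lose nearly all cell water, stop growth and photosynthesis, and resume both when water returns. Whether Enallax costatus does so was not tested here. Desiccation-tolerant plants and algae are known for proteins and sugars that protect membranes and enzymes in the dry state, among them late embryogenesis abundant proteins, early light-induced proteins, chaperones and compatible sugars. Messenger RNA that is stored in dry cells is known from seeds and resurrection plants, where it can be used or degraded soon after rewetting. The deposited tables give identifiers in the form the Trinity assembler writes and pair none of them with a gene name, so the genes are described by level, time course, length and cluster, and no function is assigned to any of them.

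As a group, the Dry-peaking genes were low and nearly level while water was lost, high in both Dry libraries, and mostly low again 1 h after rewetting. Together they held 6.95% and 6.60% of all counts in the Dry libraries. The share was 0.411% and 0.319% in Hydrated. At 2.5 h it was 0.367% and 0.418%, and at 7.5 h it was 0.327% and 0.289%. The 6 libraries before Dry therefore lay within a narrow band. The rule keeps each of their scores at least 5-fold under the lower Dry score. A high level at about 24 h and not before is thus set by the choice of genes. No sample was taken between 7.5 h and that time. In Rehydrated the share was 0.978% in replicate 1 and 0.139% in replicate 2, the former above and the latter below every library taken before Dry. The mean share of Dry was 6.78% ± 0.249, and that of Hydrated 0.365% ± 0.0650 (SD, n = 2). At 2.5 h the mean was 0.392% ± 0.0361, at 7.5 h 0.308% ± 0.0265 and after rewetting 0.559% ± 0.593 (SD, n = 2). Shares and scores are relative to the other RNA of the same library, so more RNA of a gene per cell, more cells that hold it and loss of other RNA cannot be told apart in these bulk samples.

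**Figure D1:**
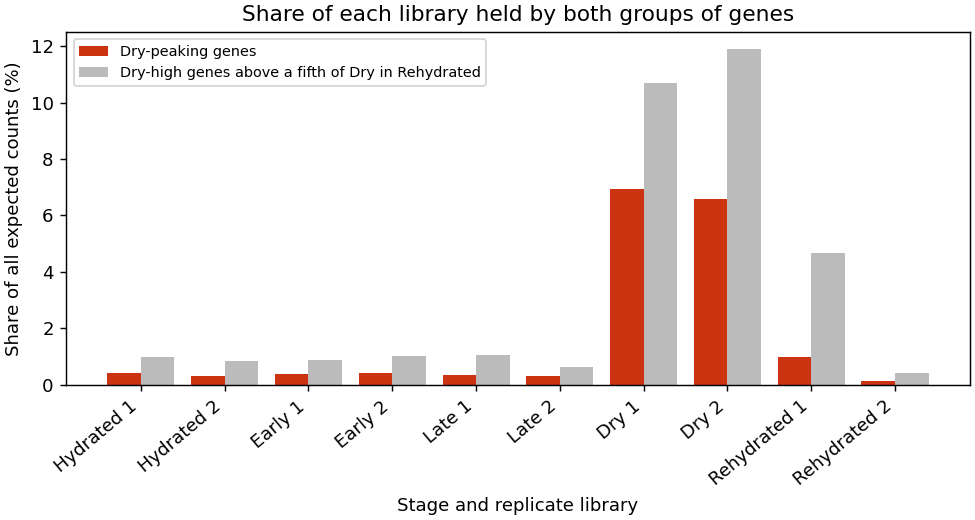
Share of all expected counts (%) held in each of the 10 libraries by the 139 Dry-peaking genes (red) and by 240 further Dry-high genes that missed the 5-fold limit in a Rehydrated library (grey). Both groups are highest in Dry, and Rehydrated replicate 1 is above replicate 2 for both (0.978% against 0.139% for the Dry-peaking genes).

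Medians over the members followed the same course, although single members moved in either direction before Dry, as given below. The median score over the 139 genes was 2.77 and 2.03 in Hydrated, 2.43 and 2.70 at 2.5 h, and 2.43 and 2.28 at 7.5 h. It was 78.7 and 79.5 in Dry and 7.25 and 2.17 in Rehydrated. The Dry mean was 28.1 times the Hydrated mean, 22.2 times the Early and 28.3 times the Late desiccation mean, as medians over the 136, 136 and 135 genes with a level above 0 there. Against the Rehydrated mean the median ratio was 14.5. Few members were silent outside Dry. Of the 139 genes, 124 had at least 3 summed counts in each of the 4 other stages, and only 2 had no count in any library before Dry.

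**Figure D2:**
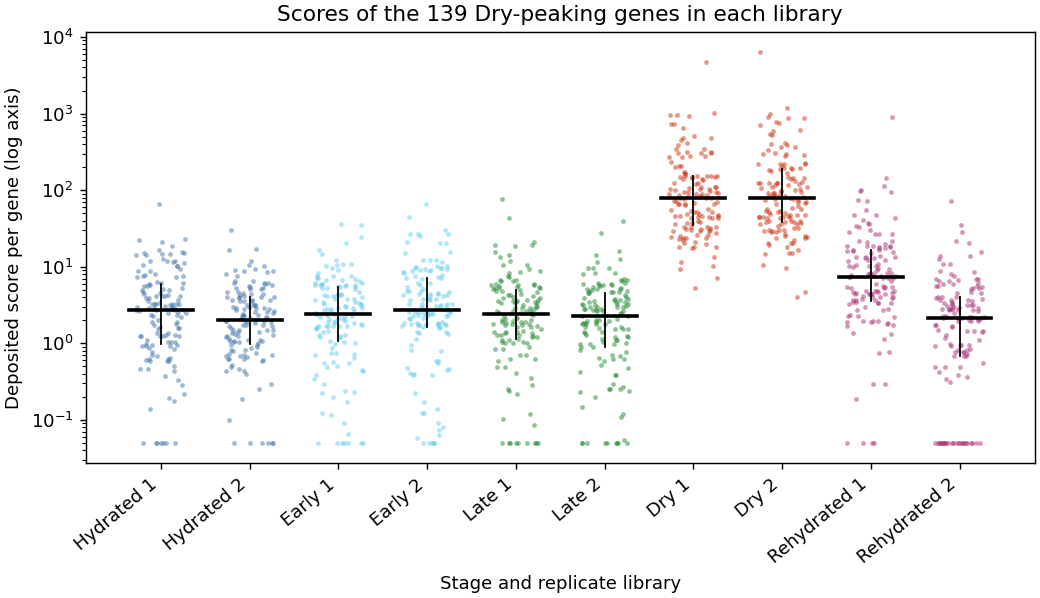
Deposited score (log axis) of each of the 139 Dry-peaking genes in each library, with the median as a thick bar and the quartiles as a thin line; scores under 0.05, including 0, are drawn at 0.05. Medians lie between 2.03 and 2.77 before Dry, at 78.7 and 79.5 in Dry, and at 7.25 and 2.17 in Rehydrated.

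Members spanned a wide range of levels and stood by different margins. The mean Dry score ran from 4.93 to 5532, with a median of 81.8 and quartiles of 37.1 and 164. The fold of the lower Dry score over the highest other score had a median of 7.46 and reached 41.4. It was at least 10 for 36 genes and at least 20 for 10 genes. Many members stood close to the limit, with 51 under 6-fold, while 75 further genes with enough counts lay between 4-fold and 5-fold. The gene just inside had a lower Dry score of 20.9 against 4.18 in Early desiccation replicate 2 (5.002-fold). The gene just outside had 608 against 122 in Rehydrated replicate 1 (4.998-fold). A further 22 genes passed the fold but had under 30 counts in a Dry library. The lower Dry count of the members ran from 30 to 23465 with a median of 498, so the Dry values of most members rest on many reads.

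The 2 Dry libraries ranked the members alike (Spearman 0.96 across 139 genes, a description across genes that share these libraries). In 117 members (84.2%) the 2 Dry scores were within 1.5 times of each other, against 77.6% of the 4261 other genes with 30 counts in both Dry libraries. The log2 ratio of replicate 1 to replicate 2 ran from -1.10 to 1.34 with a median of -0.05. The rule favours pairs that agree, since it takes the lower value.

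Counts were concentrated in few members. The gene with the most counts held 15.7% of all member counts in Dry, the top 5 held 37.8% and the top 10 held 51.2%. Of the members, 7 were among the 100 genes with the highest mean Dry score in the whole table.

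The member with the highest level was TRINITY_DN244053_c1_g1, which ranked 13 among all 32478 genes by mean Dry score. Its scores were 4.12 and 2.12 in Hydrated, 1.70 and 1.84 at 2.5 h, and 7.25 and 1.56 at 7.5 h. In Dry they were 4662 and 6402, from 23465 and 42186 counts. In Rehydrated they were 916 and 72.3, from 4564 and 239 counts. Both Dry libraries were far above all others, and both Rehydrated libraries remained above all 6 libraries taken before Dry, but differed from each other by a larger ratio than any other pair of the same stage. The log2 fold change of Rehydrated against Hydrated was 7.62 (SE 1.24, edgeR quasi-likelihood test, adjusted p = 0.00996; range of adjusted p over 21 alternatives 1.5e-15 to 0.0837). The call was lost without Hydrated replicate 1 or 2, where the log2 fold changes were 8.06 and 7.11. Without Rehydrated replicate 1 the log2 fold change was 5.21.

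TRINITY_DN223388_c58_g13 was next by level. Its scores were 7.49 and 16.4 in Hydrated, 16.4 and 29.96 at 2.5 h, and 75.7 and 27.3 at 7.5 h. They were 1004 and 1179 in Dry and 144 and 35.01 in Rehydrated. Both values at 7.5 h were above both Hydrated values, although they lay far from each other. Rehydrated was above Hydrated by 3.40 on the log2 scale (SE 0.791; adjusted p = 0.0345 by edgeR, range over 21 alternatives 5.0e-06 to 0.318), and 13 of the 21 alternatives did not call it. The only other gene of its Trinity cluster, a set of assembled sequences that share stretches, did not share the Dry peak. That gene had 2792 and 5457 counts in Hydrated, 2165 and 2699 in Dry, and 1848 and 1619 in Rehydrated.

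TRINITY_DN217685_c4_g2 and TRINITY_DN216808_c1_g1 were the members with the highest Dry level among the 3 genes without a count in either Rehydrated library. TRINITY_DN217685_c4_g2 scored 2.48 and 1.84 in Hydrated, 1.19 and 1.85 at 2.5 h, 1.04 and 1.401 at 7.5 h, and 83.6 and 84.2 in Dry. Its Dry level was at least 369-fold higher than Rehydrated, and its Hydrated level at least 22.0-fold higher, against 3 counts summed over both Rehydrated libraries (counting error only). It was the only member that edgeR called lower in Rehydrated than in Hydrated (adjusted p = 0.0125, range over 21 alternatives 0.00174 to 0.308), and the call was lost without Hydrated replicate 1 and by limma voom. The absence did not hold for its cluster. The other gene of the cluster had 0 counts in both Hydrated libraries, but 21 and 14 in Rehydrated. Summed over both genes, the counts were 64 and 42 in Hydrated, 808 and 1033 in Dry, and 21 and 14 in Rehydrated.

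TRINITY_DN216808_c1_g1 scored 1.06 and 0.252 in Hydrated, 0.565 and 0.386 at 2.5 h, and 0.493 and 0 at 7.5 h. Its Dry scores were 37.5 and 19.4. The other gene of its cluster was also a member, ranked 23 of 139, and had 2352 and 2742 counts in Dry and 92 and 20 in Rehydrated. Both genes had values that were not whole, meaning that reads were divided among similar sequences, while the cluster sums were whole numbers. TRINITY_DN216808_c1_g1 was not called in Rehydrated against Hydrated except under total count scaling, and its Hydrated level was at least 7.07-fold higher. The bound was 10.4-fold from Hydrated replicate 1 alone and 2.82-fold from replicate 2 alone.

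**Figure D3:**
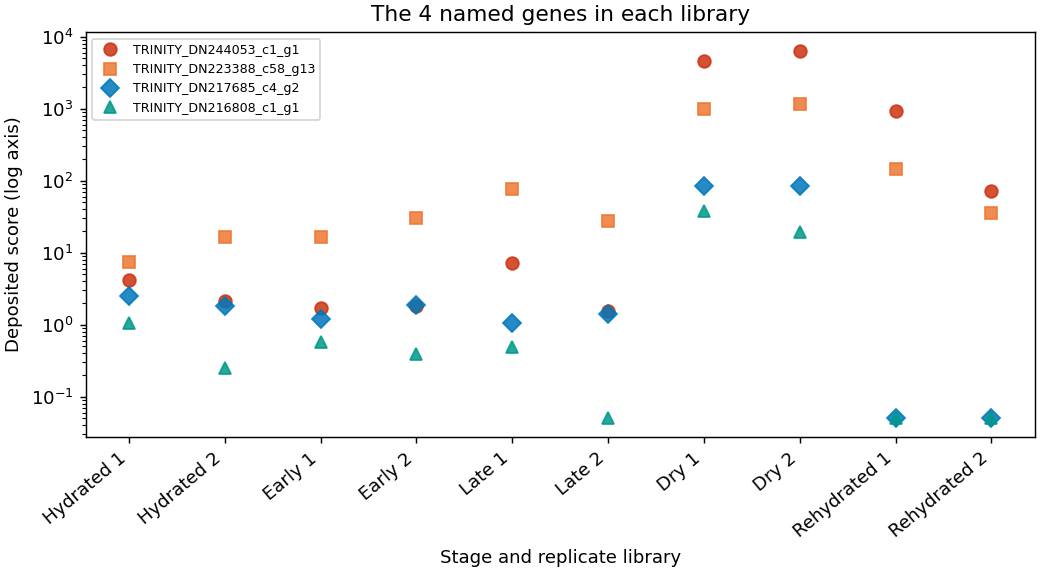
Deposited score (log axis) of the 4 named genes in each library; a score of 0 is drawn at 0.05. All are highest in both Dry libraries, and TRINITY_DN217685_c4_g2 and TRINITY_DN216808_c1_g1 are at 0 in both Rehydrated libraries.

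Whether any of the genes moved before the cells were dry was tested with edgeR in a fit of all 10 libraries, with p-values adjusted over 16190 genes by the Benjamini-Hochberg method and a threshold of 0.05. The rule treats the 8 libraries outside Dry alike, as a ceiling, and names no direction of differences among them. It does choose genes that are low in Hydrated against Dry, and the Rehydrated drops had been dry before. Rehydrated against Hydrated is therefore not free of the choice of members. All 139 members passed the filter on low counts, 10 of them only through Dry. No member was called between Early desiccation and Hydrated, where 0% of all genes were called. At an unadjusted p under 0.05 by edgeR there were 21 members (15.1%, against 11% of all genes). Of these, 14 were higher (10.1% of the members, against 3.74% of all genes) and 7 lower (5.04%, against 7.26%). DESeq2 called 9 members (6.47%, against 1.16% of all genes) and limma voom with sample weights 5 (3.6%, against 1.93%). DESeq2 shares of all genes are over 32478 genes without the filter, a larger base than the 16190 of edgeR and limma voom. No member was called between Late desiccation and Hydrated by edgeR, with 0% of all genes called. At an unadjusted p under 0.05 there were 15 members (10.8%, against 9.55% of all genes). Of the 15, 10 were higher (7.19% of the members, against 4.86%) and 5 lower (3.6%, against 4.69%). DESeq2 called 9 there (6.47%, against 1.18% of all genes) and limma voom 0 (against 0.877%). The median log2 fold change of the members was 0.07 at 2.5 h (quartiles -0.46 and 0.86) and 0.00 at 7.5 h (quartiles -0.56 and 0.73), against -0.07 and -0.03 over all genes. Values of single members ran from -3.36 to 3.02 at 2.5 h and from -9.62 to 3.01 at 7.5 h.

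Some members nevertheless differed in level before Dry without overlap. In 46 members (33.1%) both Early desiccation scores were above both Hydrated scores, against 27.2% of the 4400 genes with 30 counts in both Dry libraries. In 30 members (21.6%) both were below, against 25.6%. For Late desiccation, 32 members (23%) lay above and 36 (25.9%) below, against 18% and 42% of the 4400 genes. These shares were near those of the other genes, apart from fewer members that were below Hydrated in Late desiccation. None of these shares was tested.

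The stage with the second highest level divided the members unequally. The highest score outside Dry lay in Rehydrated for 97 genes, in Early desiccation for 20, in Hydrated for 13 and in Late desiccation for 9. By library, Rehydrated replicate 1 held it for 91 genes, Early desiccation replicate 2 for 17, Hydrated replicate 1 for 11, and each of the other 5 for 2 to 6. One library thus set the margin of most members. The groups below were chosen by where that highest score lay, so the grouping itself raises the named stage in each of them.

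The 97 genes with Rehydrated as the second stage had the highest Dry levels, with a median mean Dry score of 91.3. Their median score was 9.83 and 2.69 in Rehydrated, against 2.52 and 1.93 in Hydrated. The 13 genes with Hydrated as the second stage had a median Dry score of 83.9. Their medians were 9.45 and 5.40 in Hydrated and 3.38 and 3.64 in Late desiccation, a difference that the grouping favours. In Dry the medians were 78.6 and 84.7. In the most abundant of them, ranked 26 of 139, scores were 18.6 and 11.8 in Hydrated, 9.10 and 9.00 at 2.5 h, 14.1 and 5.86 at 7.5 h, 237 and 197 in Dry, and 17.3 and 0 in Rehydrated.

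The 20 genes with Early desiccation as the second stage stood nearest to the limit, with a median fold of 5.62. Their medians were 3.97 and 7.87 in Early desiccation and 46.2 and 51.3 in Dry. The example ranked 20 scored 3.92 and 5.34 in Hydrated, 11.0 and 20.6 at 2.5 h, 3.94 and 8.33 at 7.5 h, 301 and 310 in Dry, and 8.22 and 0 in Rehydrated. Its values at 2.5 h lay above both earlier and both later values until Dry. The 9 genes with Late desiccation as the second stage were the least abundant, with a median Dry score of 35.4 and none above 69.5.

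**Figure D4:**
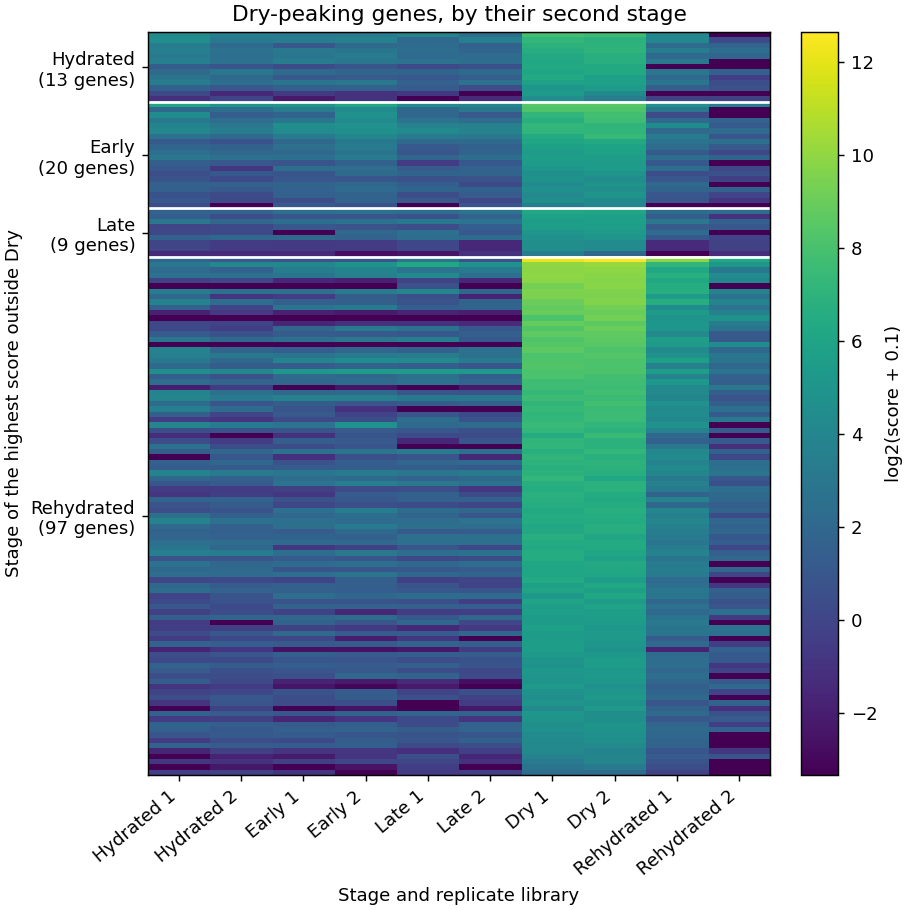
log2(score + 0.1) of the 139 Dry-peaking genes (rows) in the 10 libraries (columns), in 4 blocks by the stage of the highest score outside Dry and in order of Dry level within a block. The Dry columns are brightest in every block. The Rehydrated block (97 genes) shows a raised Rehydrated replicate 1 column, which the grouping favours.

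One hour after rewetting, the 2 libraries gave different pictures. In replicate 1 the members stood at a median of 10.3% of their mean Dry score, with quartiles of 6.80% and 14.1% and a maximum of 18.6%. In replicate 2 the median was 2.33%, with quartiles of 0.941% and 4.34%. Replicate 1 was higher in 123 genes and replicate 2 in 13. Scores in replicate 1 followed the order of Dry levels closely (Spearman 0.85 across the 139 genes, as a description). The values were 0.58 for replicate 2 and 0.42, 0.35 and 0.39 for the means of Hydrated, Early and Late desiccation. The 5-fold limit caps each score by the Dry scores, and replicate 1 was the highest outside Dry for 91 members. The rule thus shapes part of this order and of the maximum in replicate 1. Replicate 2 had no count for 25 members, against 4 for replicate 1, with a median of 10 counts per member against 45. The total counts of these libraries were close (1974807 and 2031430).

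**Figure D5:**
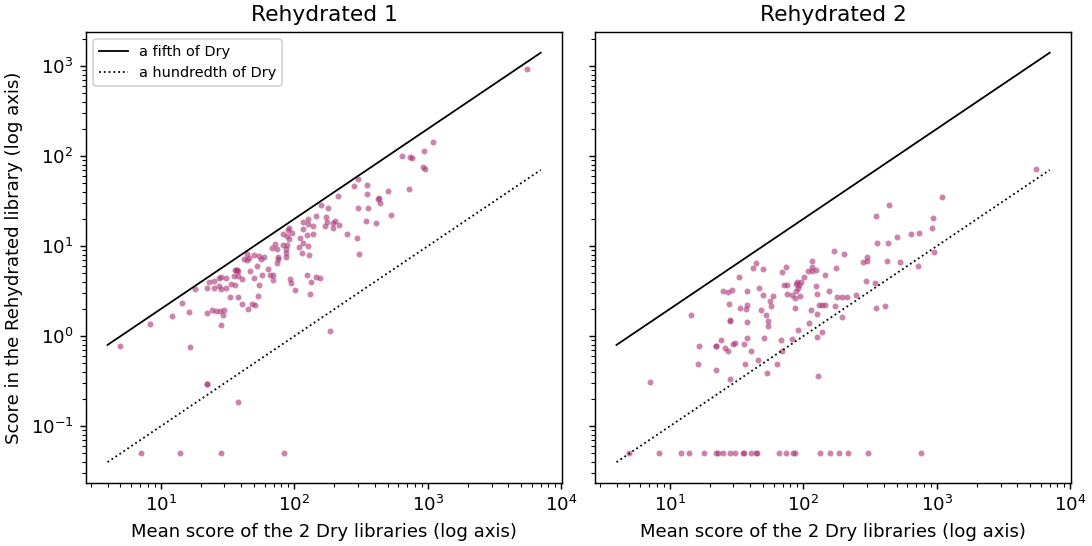
Score in Rehydrated replicate 1 (left) and replicate 2 (right) against the mean Dry score of each of the 139 Dry-peaking genes, both on log axes; the solid line marks the 5-fold limit on the mean and the dotted line a 100-fold lower level, and scores under 0.05 are drawn at 0.05. The rule keeps both replicates under the solid line. Replicate 1 lies in a band beneath it (median 10.3% of Dry), and replicate 2 lies lower (median 2.33%).

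Relative to Hydrated, part of the members were higher in Rehydrated, in a comparison that is not free of the rule, as given above. edgeR called 28 members (20.1%), against 5.79% of all genes. It called 27 higher (19.4%), against 2.24% of all genes, and 1 lower (0.719%), against 3.55% of all genes. The log2 fold changes of the 27 ran from 2.22 to 7.996 (median 3.76, adjusted p between 0.00777 and 0.0499), and in 25 of them both Rehydrated scores were above both Hydrated scores. In 3 of them no Hydrated library held a count, and their fitted fold changes depend on the prior count. These were the members ranked 6, 12 and 18, all from 1 cluster of very short sequences. The member ranked 6 gave the highest fold change, 7.996. Of the 27, 3 passed the filter on low counts only through Dry. In a fit of the libraries outside Dry alone, 129 members were tested and 16 called, all 16 among the 28 (12.4%, against 2.84% of all genes). At an unadjusted p under 0.05, 63 members (45.3%) were higher, against 8.97% of all genes. Of the 27, 16 were among the 35 members with the highest Dry level and 1 among the 35 with the lowest. The 16 include the members ranked 6, 12 and 18, where small counts on very short sequences give high scores. How far low counts limit calls among the lowest 35 was not tested. Over all 139 members the median log2 fold change was 1.24, against -0.09 over all genes, with 115 above 0 and 24 below. Without overlap, both Rehydrated scores were above both Hydrated scores in 43 members (30.9%) and below in 11 (7.91%), against 11.4% and 48.1% of the 4400 genes. The remaining members were not called at this spread between libraries.

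These calls moved with the libraries, the tool and the scaling, and so did the share of all genes called. No member was called without Hydrated replicate 1 (47 at an unadjusted p under 0.05), where 0.189% of all genes were. Without Hydrated replicate 2 the count was 8 (5.76%, against 2.49% of all genes). It was 15 without either Early desiccation library (10.8%, against 2.49%) and 16 without Late desiccation replicate 1 (11.5%, against 3.05%). It was 12 without Dry replicate 1 or 2 (8.63%, against 2.6% and 2.54%). Without Rehydrated replicate 2 it was 53 (38.1%, against 8.03%). Without Rehydrated replicate 1, 26 were called higher and 8 lower (24.5%, against 14.8% of all genes), and the median fell to 0.08 on the log2 scale. DESeq2 called 58 (41.7%, against 6% of 32478 unfiltered genes). Both Rehydrated libraries, Hydrated replicate 2 and Late desiccation replicate 2 lie on 1 side of a library split described earlier in these data. Both Dry libraries lie on the other side, so Dry against Rehydrated cannot be told apart from that split. With the split as a term, 18 members were called in Rehydrated against Hydrated (12.9%, against 3.09%). Scaled by total counts, 17 members were called (12.2%), fewer than the 25.3% of all genes. Of these, 12 were higher and 5 lower (70.6% higher, against 96.4% under TMM), while 1.01% of all genes were called higher and 24.3% lower. The median was -0.16 while that of all genes moved to -1.63. The members thus stood 1.32 above the median of all genes under TMM and 1.47 above it under total counts. A change of scaling shifts all genes nearly alike, so these 2 values could hardly differ. A joint test for any difference among the 4 stages outside Dry called 29 members by edgeR, against 6.24% of all genes, and 23 of these were among the 28 called between Rehydrated and Hydrated.

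Members were a part of a larger group of genes that were high in Dry. Against Hydrated, Early and Late desiccation alone, 379 genes passed the same 5-fold and 30-count rule, and the 139 members are 36.7% of them. The other 240 missed the limit in Rehydrated, 218 of them in replicate 1 only, 6 in replicate 2 only and 16 in both. The 240 genes stood at a median of 32.5% of their Dry level in replicate 1 and 5.00% in replicate 2, and held 10.7% and 11.9% of all counts in Dry. Their median score was 3.12 and 2.42 in Hydrated, and 21.4 and 3.56 in Rehydrated, where they were chosen as missing the limit. Replicate 1 thus separated most of the 240 genes from the members, while in replicate 2 both groups were low. With the rule turned to each other stage, 18 genes peaked in Hydrated (0.216% of 8326 with 30 counts in both libraries), 0 in Early desiccation (0% of 8819), 0 in Late desiccation (0% of 6389) and 57 in Rehydrated (6.03% of 946).

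Beyond the values used to choose them, the members shared few traits. Relative effective length, the count per unit of score in Dry divided by its median over all genes, had a median of 1.46 in the members, 1.73 in the 240 genes and 1.61 in the 4261 other genes with 30 counts. Of the members, 6 had a relative length under 0.2, where small counts give high scores. A value in Dry that was not whole was found in 46.8% of the members, 36.3% of the 240 genes and 28.4% of the 4261 genes, so reads were more often divided among similar sequences in members. Sharing a Trinity cluster with another gene was seen in 48.9%, 36.3% and 39.5%. None of these differences was tested, as genes are not replicates.

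The 139 members fell into 128 clusters, of which 9 held 2 members and 1 held 3. In 1 of these pairs all 10 counts were identical, so both genes carry 1 measurement. These clusters held 155 other genes, of which 59 had 30 counts in both Dry libraries, a minimum that favours genes high in Dry. Of the 59, 52 (88.1%) had both Dry scores above every other library, against 42.9% of the 4261 other genes. Reads divided among similar sequences were frequent in members, as given above, and their part in this likeness was not tested. Summed over clusters, 109 of the 128 still passed the rule, and so did 38 of the 57 clusters that hold a member and another gene.

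The cluster with 3 members held very short sequences. Its members, ranked 6, 12 and 18, had relative lengths of 0.0369, 0.0232 and 0.0232. The member ranked 6 scored 640 and 884 in Dry from only 112 and 208 counts, and 95.0 and 0 in Rehydrated. It had 1 count in Late desiccation replicate 1 and none in the other 5 libraries before Dry. The members ranked 12 and 18 had 31.1 and 89.0 counts and 37.3 and 54 counts in Dry, and none before Dry. A longer gene of the cluster, with a relative length of 0.825, was no member and had 675 and 263 counts in Hydrated, 8477 and 14763 in Dry, and 2324 and 104 in Rehydrated. The longer gene was thus present in every library, whereas the short members had 1 count or none before Dry.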

How the data were processed

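RNA-seq of 10 libraries was analysed. The submitters' processing notes name RSEM 1.2.28, Bowtie2 2.2, Trimmomatic 0.35, CASAVA 1.4 and DESeq2. What each did, and the assembly, are not given in the sources used here. One table holds expected counts per assembly gene that the authors deposited (11.4% of values not whole). Another holds a score that the authors deposited, judged from its name and values as length-normalised expression scaled by 1 TMM factor per library; its columns sum to between 535618 and 2610432. Column names begin differently from the sample titles and were assigned by their shared replicate digit and time code.

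The members and lists were chosen with earlier results of these data known. Counts were rounded and tested in R 4.3.3 with edgeR 4.0.16 (filterByExpr, minimum count 10, minimum total 15, TMM, glmQLFit, stage as factor, 5 residual degrees of freedom), which kept 16190 genes. SE is the absolute log2 fold change divided by the square root of F. On simulated counts with changes in Rehydrated only, the code recovered the known median log2 fold changes. These counts held no library split, so they do not bear on how the calls move with the libraries. Alternatives used DESeq2 1.42.0 and limma 3.58.1. Named genes were the 2 members with the highest mean Dry score and the 2 highest without counts in Rehydrated; other examples were chosen after their values were seen. Libraries of a stage differed by more than counting error (chi-square over its degrees of freedom 10.0 in Dry, 37.3 in Rehydrated). Floors cover counting error only, since no molecular identifiers are named in the sources used here.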

Additional observations from a re-analysis of the deposited data

How the results depend on the processing

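The number of members was 363 at 3-fold, 36 at 10-fold and 63 by CPM on total counts. It was 398 in the 6 libraries of a set that an earlier report on these data had found to stand apart. That set (Hydrated 1, both Early desiccation, Late desiccation 1 and both Dry) holds no Rehydrated library, so the Rehydrated limit of the rule is absent. With all libraries, 379 genes passed against Hydrated, Early and Late desiccation alone. The number of members ranged from 139 to 357 without 1 library, with 357 without Rehydrated replicate 1 and 228 without Dry replicate 1. Leaving out a library only removes a condition of the rule, so the number cannot then fall below 139. Such alternatives are among the 13 of 19 under which the count was within 1.5 times of 139. Summed over Trinity clusters, an alternative chosen after seeing the data, it was 111. CPM on TMM-scaled library sizes gave 158 genes, 128 of them the same. The members' share of Dry counts was 6.78%; it was 2.46% at 10-fold and 5.74% without the member with the most counts, and ranged from 6.60% to 6.95% without a Dry library.

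Members called are given with the share of all genes called in parentheses. That share is over 32478 genes by DESeq2 and 32476 without a filter, and otherwise over the genes kept by the filter. In Early desiccation against Hydrated they were 9 by DESeq2 (1.16%) and 5 by limma voom with sample weights (1.93%). The number also moved when a Rehydrated library was left out. In Late desiccation they were 1 without a filter (0.151%) and 9 by DESeq2 (1.18%). They were 1 with the replicate block (0.0494%) and 1 with the library split as a term (0.105%). Here too the number moved when a Rehydrated library was left out. In Rehydrated against Hydrated, with 28 in the fit as reported (5.79%), they were 17 under total counts (25.3%), 58 by DESeq2 (6%), 16 by limma voom (1.71%), 13 by limma on log2(score + 0.1) (7.88%), 16 with only the libraries outside Dry (2.84%), 18 with the library split (3.09%), and 0 to 53 without 1 library. In the joint test, with 29 as reported (6.24%), they were 11 under total counts (8.22%), 68 by DESeq2 (10.4%), 16 by limma on log2(score + 1) (12.7%), 14 on log2(score + 0.1) (5.94%), 16 with only the libraries outside Dry (2.40%), 13 with the library split (2.03%), and 13 to 52 without 1 library. Without 1 library the filter kept more genes, between 19112 and 21099. The fit with the replicate block gave 29 (5.68%) and 31 (8.23%) in the last comparisons. Replicate numbers were not taken as pairs, since few stages shared replicate deviations. These correlated above 0.1 in only 4 of 10 pairs of stages (-0.07 to 0.48). The cause of these differences was not tested. No fold change of a named gene changed sign. Of the members, 10 passed the filter only through Dry, so their differences outside Dry rest on few counts.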
